A study of Mus musculus with 4 samples.

Results

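The genes described here are 32 mouse genes of double-strand break sensing, homologous recombination and interstrand crosslink repair, the last of these known as the Fanconi anaemia pathway. They are the rows of the deposited table whose gene name is on a fixed list of 32 names and that carry a base mean, the mean of normalised reads over all libraries. All 32 names had such a row, out of 12578 genes with values. Messenger RNA was sequenced from MC38/gp100 cells, a mouse colon carcinoma line of C57BL/6 origin whose name carries the melanocyte antigen gp100. The control group was kept in DMSO, the solvent, for 5 days (2 libraries). The treated group was kept for 5 days in 1 µM GSK3368712 (2 libraries), a small molecule that blocks type I PRMTs, the enzymes that place asymmetric methyl groups on protein arginines. Both groups are the same cell line in the same medium, and the labels leave unsaid whether a group's 2 libraries are separate cultures. P-values therefore measure only spread between libraries, which may be technical. They lean mostly on the spread common to all tested genes and little on that of the single gene. Each group's libraries carry the letters A and B of their table columns.

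When both DNA strands break, the complex of MRE11, RAD50 and NBN finds the end and brings in the kinase ATM. Resection then leaves a single strand, and BRCA1, BARD1, PALB2 and BRCA2 prepare it for pairing with the sister chromatid, which serves as the template for repair. In crosslink repair the Fanconi core complex attaches ubiquitin to FANCD2 and FANCI, which opens the way to the same recombination steps. Many of these genes are transcribed most in S phase, when a sister copy exists. MRE11 and 53BP1 are also known protein substrates of PRMT1, a type I enzyme. Messenger levels do not report on protein methylation.

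Promoters of these genes were read from RefSeq (GRCm38.p6, the same assembly as mm10), in windows from 250 bases before to 50 bases after the gene's start, with the first listed window for each gene. A window was found for 25 of the 32 genes. An E2F-type motif (TTTGGCGC, TTTCCCGC, TTTCGCGC or TTTGCCGC on either strand) lay in 5 of the 25 windows (20%), against 4.12% of 9666 windows of genes with values and 2.32% of all 27025 windows. E2F proteins are transcription factors of S phase genes. A CCAAT box (CCAAT on either strand), bound by the factor NF-Y, lay in 15 of 25 (60%), against 38.9% of genes with values and 37.9% of all windows. The CHR motif (TTTGAA on either strand), an element of G2 and mitosis genes, lay in 2 of 25 (8.0%), against 11.8% and 18.1%. Among the 33 matches in the 25 windows, 0 pairs overlapped. A match describes the sequence and does not show binding.

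Stretches of 40 bases before the start are shown for 3 genes with an E2F-type motif and 5 with a CCAAT box, to let the shared elements be seen in genes whose values follow. Each is written on the gene's own strand with the motif in capitals, and GCGGGAAA and ATTGG are the motifs read from the other strand.
Bard1 (chr1:71103158-71103197, minus strand): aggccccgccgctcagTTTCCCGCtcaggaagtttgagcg
Brca2 (chr5:150522437-150522476, plus strand): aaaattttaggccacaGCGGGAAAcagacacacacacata
Mdc1 (chr17:35841458-35841497, plus strand): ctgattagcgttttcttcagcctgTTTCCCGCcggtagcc
Brca1 (chr11:101552019-101552058, minus strand): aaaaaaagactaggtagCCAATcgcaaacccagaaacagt
Brip1 (chr11:86201205-86201244, minus strand): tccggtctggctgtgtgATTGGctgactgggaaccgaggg
Fanca (chr8:123318577-123318616, minus strand): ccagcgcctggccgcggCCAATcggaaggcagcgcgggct
Rad54l (chr4:116123718-116123757, minus strand): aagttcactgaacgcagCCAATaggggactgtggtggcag
Rad51ap1 (chr6:126939601-126939640, minus strand): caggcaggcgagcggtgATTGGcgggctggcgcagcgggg

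Whole reads per library were worked back from the deposited base means, and the totals over all genes ranged from 1079854 to 1176009 per library. These totals count only reads assigned to genes of the table, and the depth of sequencing is not known. The median base mean was 22.6 over all genes and 17.8 over the 32 genes. The library kit keeps strand, per the labels, but no source used here gives the strand setting with which reads were counted. Among all genes with values, 19.7% have an exon that overlaps an exon of a protein-coding gene on the other strand, and these hold 51.2% of the base-mean total. Without that setting, the reads of such partners cannot be told apart. Nor is it known whether the reads of any gene were counted on its own strand or on the other, so each value is that of the gene's row in the table. Of the cell type markers checked, 3 of 9 leukocyte, 7 of 10 epithelial, 7 of 10 fibroblast and 2 of 6 endothelial markers had values. Cdh1 (base mean 0.449), Cdh5 (1.25) and Pecam1 (1.54) were near 0, and the pan-leukocyte marker Ptprc had no value. In the same lists the leukocyte marker Csf1r had a base mean of 473 and the epithelial marker Esrp2 one of 224. The 7 fibroblast markers summed to 1174 and 1170 normalised reads in DMSO and 1709 and 1523 with the inhibitor. Of the 6 tested, 5 had a log2 fold change above 0 and 1 had one below 0 (-0.53). Only Col3a1 was called, and it was higher (log2 fold change 0.96 ± 0.14). The part of these markers in the values of the 32 genes was not tested. Fewer cells of a type and less RNA per cell cannot be told apart in such bulk samples.

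None of the recombination and Fanconi genes changed past the threshold with the inhibitor. Of the 32, 23 had a base mean of at least 10 and were tested, and 0 were called higher or lower (limma on the deposited log2 values, Benjamini-Hochberg adjusted p under 0.05 over 8562 genes, two-sided). Over all genes tested, 2.14% were called, 1.3% higher and 0.841% lower. At an unadjusted p under 0.05, 1 of the 23 passed (4.35%), Fancd2, against 12.2% of all genes. With voom on recovered reads 0 were called and 1 had an unadjusted p under 0.05, again Fancd2. That fit used the same libraries and is not a separate check of Fancd2. In the authors' deposited table, 9 of the 32 have an adjusted p, each 0.9997, and none of the 32 has an unadjusted p under 0.05. Of the 4527 genes to which it gives an adjusted p, that table calls 0.574%. The log2 fold changes of the 23, on the scale of log2 of normalised reads plus 1, ran from -0.81 at Fancd2 to 0.55 at Atr, with a median of -0.19. The median over all genes tested was 0.01. A value below 0 was seen at 16 of the 23 (69.6%), against 49.2% of all genes tested. In 10 of the 23 (43.5%) the libraries of the 2 groups did not overlap, 8 lower and 2 higher with the inhibitor. Over all genes such a separation was seen in 41.2%, with 20.5% lower and 20.7% higher. The share in either direction, 43.5%, was thus near the background. These 10 genes split into 8 lower and 2 higher, whereas over all genes the directions were nearly even. This difference in split rests on 10 genes and was not tested. The 95% interval of the fold change lay within a factor of 1.5 either way for 6 of the 23 and within a factor of 2 for 14.

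**Figure D1:**
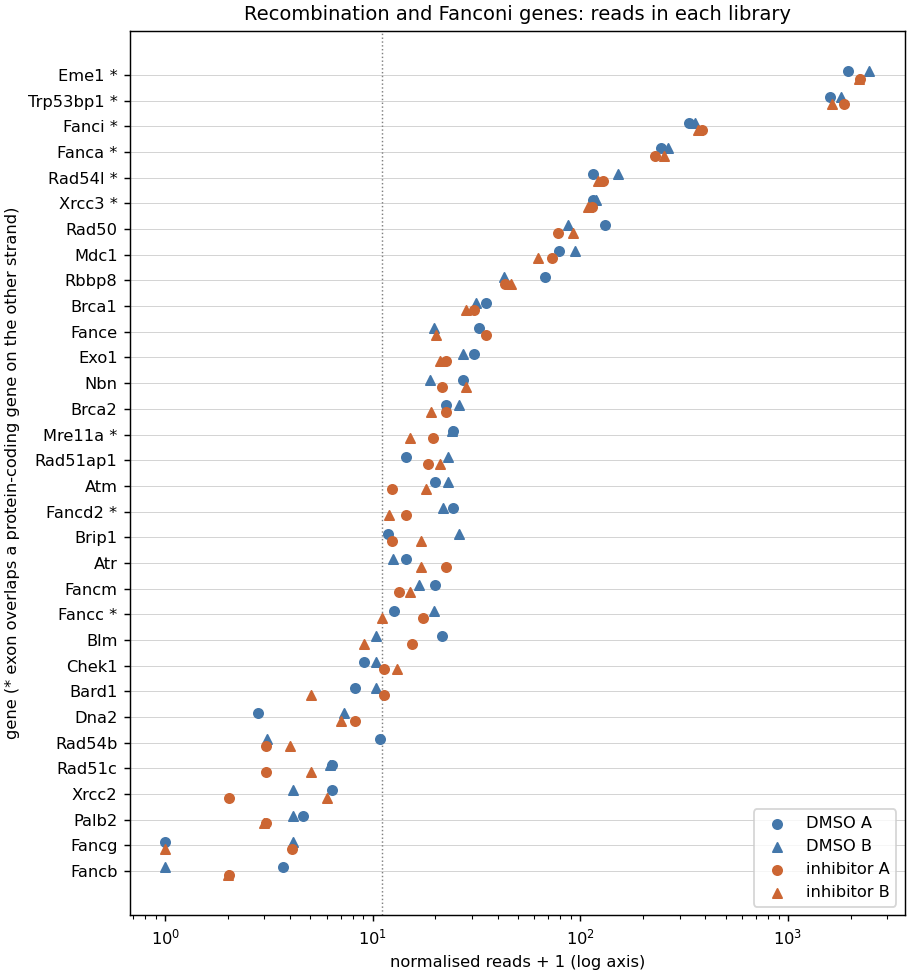
Normalised reads plus 1 (log axis) of the 32 genes in each library, ordered by base mean, with DMSO in blue, inhibitor in orange, circles for library A and triangles for B. The dotted line marks the base mean of 10 needed for testing, and Eme1 and Trp53bp1 lie far to the right of the other 30 genes.

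Genes of break sensing and signalling comprised 8 members, of which 7 were tested and 0 called. Their median log2 fold change was -0.33, with 4 values below 0 and 3 above. The 3 subunits of the end-binding complex showed no common direction. Mre11a, the nuclease (chr9:14784654-14837123, plus strand), had 23.3 and 22.96 normalised reads in DMSO A and B and 18.5 and 14.0 in inhibitor A and B. Both inhibitor libraries lay below both DMSO libraries, and the log2 fold change was -0.50 ± 0.35 (SE; 95% interval -1.19 to 0.20; limma, adjusted p = 0.64). Rad50, the ATPase that bridges broken ends (chr11:53649519-53707319, minus strand), had 130 and 85.6 in DMSO and 77.2 and 91.1 with the inhibitor. DMSO A stood above the other 3 libraries, and the groups overlapped. The log2 fold change of Rad50 was -0.33 ± 0.18 (limma, adjusted p = 0.43) with all libraries. Without DMSO B it was -0.63 (limma, adjusted p = 0.051), and without DMSO A it was -0.03 (limma, adjusted p = 0.98). Nbn, the subunit that recruits ATM, had 26.02 and 17.7 in DMSO and 20.6 and 27.04 with the inhibitor, with overlapping groups.

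The 2 apical kinases of the response had opposite signs, and neither passed. Atm, the kinase activated by double-strand breaks (chr9:53439149-53536740, minus strand), had 18.8 and 21.9 normalised reads in DMSO and 11.3 and 17.03 with the inhibitor. Its inhibitor libraries were both below DMSO, with a log2 fold change of -0.52 ± 0.38 (95% interval -1.26 to 0.23; limma, adjusted p = 0.65). Atr, the kinase activated by single-stranded DNA at stalled forks (chr9:95857597-95951781, plus strand), had 13.5 and 11.5 in DMSO and 21.6 and 16.02 with the inhibitor. Both inhibitor libraries were above DMSO, and the log2 fold change was 0.55 ± 0.39 (95% interval -0.23 to 1.33; limma, adjusted p = 0.63). Exons of Atr share 1188 bp with the antisense genes 1700065D16Rik and Gm16794. Chek1, the checkpoint kinase downstream of ATR, had a base mean of 9.94, just under the minimum for testing. It held 8.07 and 9.39 normalised reads in DMSO and 10.3 and 12.02 with the inhibitor, so its inhibitor libraries were the higher ones by a few reads.

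The mediators of break signalling were among the more abundant genes. Mdc1, which binds phosphorylated H2AX and whose promoter stretch is shown above (chr17:35841515-35859670, plus strand), had 78.1 and 92.9 normalised reads in DMSO and 72.0 and 61.1 with the inhibitor. The groups did not overlap, and the log2 fold change was -0.36 ± 0.19 (95% interval -0.73 to 0.02; limma, adjusted p = 0.46). No opposite-strand exon is annotated at Mdc1 or Rad50. Trp53bp1, which encodes 53BP1, the factor that holds back resection, had 1599.6 and 1804 in DMSO and 1860.1 and 1623 with the inhibitor. Its groups overlapped, and the log2 fold change was 0.03 ± 0.13 (95% interval -0.23 to 0.30; limma, adjusted p = 0.96).

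All 3 tested genes of end resection and dissolution had log2 fold changes below 0, and 0 of the 3 were called. Exo1, the exonuclease of long-range resection, had 29.6 and 26.1 normalised reads in DMSO and 21.6 and 20.03 with the inhibitor. Its groups did not overlap, at -0.40 ± 0.31 in log2 fold change (adjusted p = 0.68, limma). Rbbp8, which encodes CtIP, the cofactor that starts resection, had 66.4 and 41.8 in DMSO and 42.2 and 45.1 with the inhibitor. DMSO A was the high library, as at Rad50, and the log2 fold change of Rbbp8 was -0.27 ± 0.23. Without DMSO A it was 0.06. Blm, the helicase that dissolves double Holliday junctions, had 20.6 and 9.39 in DMSO and 14.4 and 8.01 with the inhibitor. Library A exceeded library B within each group at Blm, and the groups overlapped. Dna2, a resection nuclease, was under the minimum with a base mean of 5.32, and its lowest library was DMSO A with 1.79 normalised reads.

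The BRCA genes were measured with few reads. Brca1, the ubiquitin ligase that promotes resection (chr11:101488764-101551955, minus strand), had 34.1 and 30.3 normalised reads in DMSO and 29.8 and 27.0 with the inhibitor. The inhibitor libraries were the lower ones by a narrow margin, and the log2 fold change was -0.17 ± 0.28 (95% interval -0.73 to 0.38; limma, adjusted p = 0.89). Brca2, a central mediator of recombination (chr5:150522630-150570329, plus strand), had 21.5 and 25.1 in DMSO and 21.6 and 18.0 with the inhibitor. Its groups overlapped, and the log2 fold change was -0.22 ± 0.33 (95% interval -0.88 to 0.43; limma, adjusted p = 0.87). These intervals hold a fold from 0.604 to 1.304 for Brca1 and from 0.543 to 1.35 for Brca2. Their partners Bard1 and Palb2 were under the minimum, with base means of 7.72 and 2.70. Bard1 held 7.18 and 9.39 in DMSO and 10.3 and 4.01 with the inhibitor. Palb2 held 3.59 and 3.13 in DMSO and 2.06 and 2.00 with the inhibitor.

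The 6 factors that aid strand pairing differed widely in level. Xrcc3, whose protein pairs with that of Rad51c, had 114 and 118 normalised reads in DMSO and 113 and 107 with the inhibitor. Rad54l, a motor protein that remodels DNA during strand pairing, had 114 and 151 in DMSO and 128 and 120 with the inhibitor. The log2 fold changes were -0.07 ± 0.17 for Xrcc3 and -0.08 ± 0.16 for Rad54l (limma, adjusted p = 0.93 and 0.91). Rad51ap1, which stimulates strand pairing, had 13.5 and 21.9 in DMSO and 17.5 and 20.03 with the inhibitor, with overlapping groups. The remaining 3 were under the minimum, with base means of 4.17 for Rad51c, 3.64 for Xrcc2 and 4.25 for Rad54b. At Rad54b, DMSO A held 9.87 normalised reads and the other 3 libraries held between 2.06 and 3.0045. Exons of Rad54b share 2068 bp with Fsbp on the same strand, so its reads are uncertain.

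Among the 23 tested genes the largest fold change was at Fancd2, and it did not pass. Fancd2, which is ubiquitinated at a crosslink together with FANCI (chr6:113531682-113597017, plus strand), had 23.3 and 20.9 normalised reads in DMSO and 13.4 and 11.02 with the inhibitor. Both inhibitor libraries were below both DMSO libraries. The log2 fold change was -0.81 ± 0.38 (95% interval -1.56 to -0.06; limma, unadjusted p = 0.032, adjusted p = 0.34). In the authors' deposited table the log2 fold change of Fancd2 is -0.86 with a standard error of 0.64 and an unadjusted p of 0.18. Its partner Fanci (chr7:79391929-79450264, plus strand) had 332 and 357 in DMSO and 384 and 369 with the inhibitor. Here the inhibitor libraries were the higher ones, with a log2 fold change of 0.13 ± 0.13 (95% interval -0.14 to 0.39; limma, adjusted p = 0.79).

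Of the 6 Fanconi core complex and anchor genes, 4 were tested and 0 called. Fanca, a core subunit (chr8:123268300-123318576, minus strand), had 244 and 263 normalised reads in DMSO and 228 and 252 with the inhibitor, so the log2 fold change was -0.08 ± 0.14, with a 95% interval of -0.36 to 0.20 (adjusted p = 0.91, limma). Fancm, the translocase that anchors the core at DNA, had 18.8 and 15.7 in DMSO and 12.3 and 14.0 with the inhibitor. The groups of Fancm did not overlap, and its log2 fold change was -0.36 ± 0.40. Fancc had 11.7 and 18.8 in DMSO and 16.5 and 10.0 with the inhibitor. Fance, which contacts FANCD2, had 31.4 and 18.8 in DMSO and 34.0 and 19.0 with the inhibitor. At Fance, library A exceeded library B within each group by more than the groups differed. Fancg and Fancb were nearly without reads. Fancg held 0 whole reads in DMSO A and inhibitor B and 3 in each of the other libraries, and Fancb held 0 in DMSO B and 1 to 3 elsewhere. A count of 0 allows up to 3 reads by counting error alone, so no fold is given for either. Brip1, the FANCJ helicase that binds BRCA1, had 10.8 and 25.1 in DMSO and 11.3 and 16.0 with the inhibitor, and its groups overlapped.

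**Figure D2:**
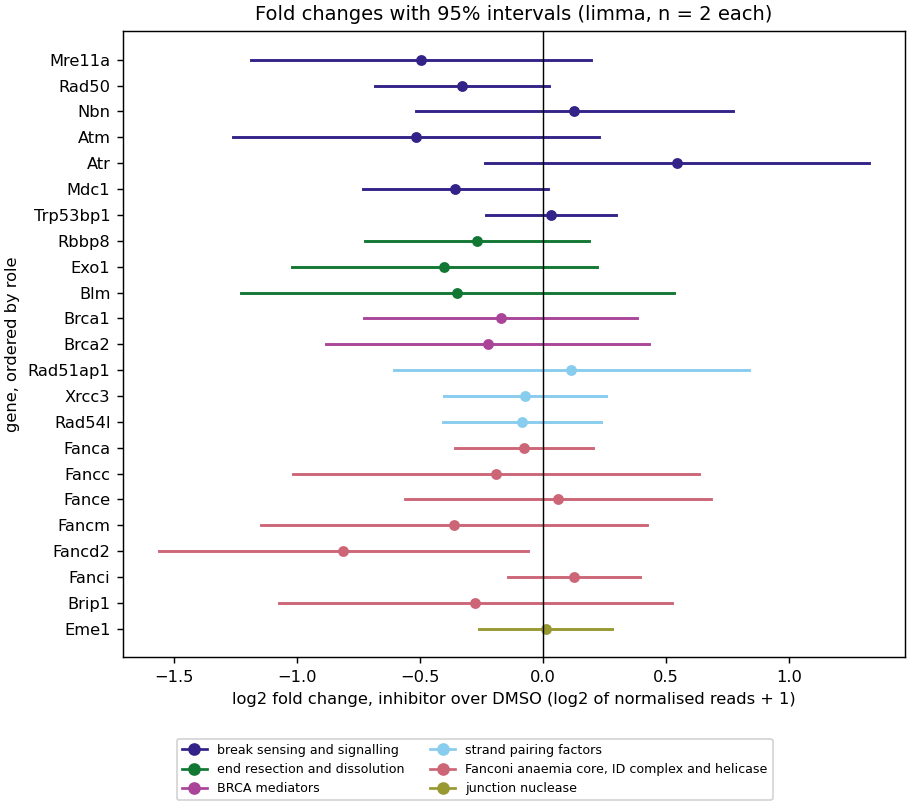
Log2 fold change of inhibitor over DMSO (points) with 95% intervals (lines) for the 23 tested genes, coloured by role, from limma on log2 of normalised reads plus 1 with 2 libraries a group. The interval of Fancd2 (-1.56 to -0.06) is the only interval of the 23 that leaves out 0, before any adjustment for the number of genes.

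Eme1, a subunit of the nuclease that cuts recombination junctions (chr11:94644996-94653964, minus strand), had the highest value of all 32 genes, with a base mean of 2208 beside 2203 for the actin gene Actb. It held 1949 and 2463 normalised reads in DMSO and 2218 and 2200.3 with the inhibitor. The DMSO libraries lay on either side of the inhibitor libraries, and the log2 fold change was 0.01 ± 0.14 (95% interval -0.26 to 0.28; limma, adjusted p = 0.99). Per kb of exon, Eme1 held 799 normalised reads, Trp53bp1 122 and Fanci 62.4. Of the genes of the end-binding complex, Rad50 held 17.9, Nbn 9.02 and Mre11a 3.33 per kb. Brca1 held 3.55, Fancd2 2.16 and Brca2 1.58, and the lowest value was 0.367 at Palb2. Eme1 and Trp53bp1 together made up 74.0% of the base-mean total of the 32 genes.

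The top of this order of levels went with the arrangement of neighbouring genes. Exons of 9 of the 32 genes (28.1%) overlap an exon of a protein-coding gene on the other strand, and these 9 held 90.9% of the base-mean total of the 32. Their median base mean was 128, against 15.6 for the other 23 genes. Per kb of exon the medians were 28.2 and 1.58, and over all genes with values they were 13.3 and 4.12. The 6 most abundant genes, Eme1, Trp53bp1, Fanci, Fanca, Rad54l and Xrcc3, all belong to the 9. They are also the 6 whose fold-change intervals lay within a factor of 1.5. The opposite exons cover 0.436% of the exon bases of Xrcc3 and 10.5% to 15.95% of those of the other 5. Lower in the order the arrangement and the level did not go together. Mre11a, Fancd2 and Fancc also belong to the 9, with base means of 19.7, 17.1 and 14.2. Rad50 and Mdc1, with no opposite exon, had 96.0 and 76.0. The share of reads that belongs to the partner was not tested.

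**Figure D3:**
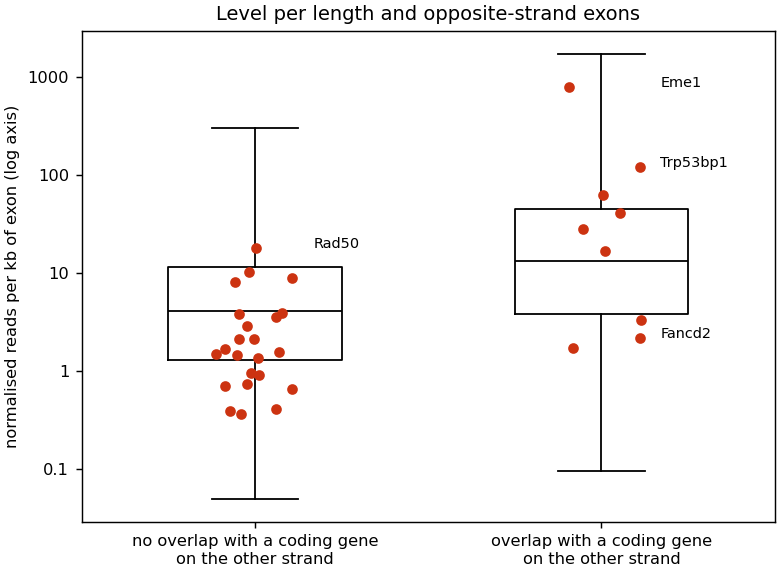
Normalised reads per kb of exon (log axis) for genes without (left) and with (right) an exon overlapping a protein-coding gene on the other strand. Red points are the 32 recombination and Fanconi genes (23 left, 9 right), boxes show the median and quartiles of all genes with values, and whiskers reach 1.5 times the box length at most.

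The partners' own base means were near those of some repair genes and far from those of others. Eme1 shares 221 bp with Lrrc59, a ribosome-binding membrane protein gene, and 75 bp with Mrpl27, a mitochondrial ribosomal protein gene, which had base means of 824 and 42.1. Trp53bp1 shares 2130 bp with Tubgcp4, a gene of the gamma-tubulin ring (base mean 262). Fanci shares 921 bp with Polg, the mitochondrial DNA polymerase (base mean 265). Fanca shares 920 bp with Zfp276 (644), Rad54l shares 1184 bp with Lrrc41 (199), and Xrcc3 shares 12 bp with the kinesin light chain gene Klc1 (141). None of these partners was called. At Fancd2 the overlap of 257 bp is with Fancd2os, whose log2 fold change stood at -0.57 ± 0.24 (adjusted p = 0.26, limma), beside -0.81 ± 0.38 at Fancd2. At Mre11a the overlap of 154 bp is with Ankrd49, with -0.55 ± 0.18 (limma, adjusted p = 0.088), beside -0.50 ± 0.35. At Fancc the partner 2010111I01Rik (185 bp) had 0.66 ± 0.28 (limma, adjusted p = 0.36), beside -0.19 ± 0.42.

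Summed over the 32 genes, normalised reads were 4967 and 5704 in DMSO and 5426 and 5144 with the inhibitor, a ratio of 0.990. The DMSO libraries enclosed those of the inhibitor. DMSO A was also the lowest library over all genes with an opposite-strand exon. Their sums were 511253 and 575991 in DMSO and 559640 and 564600 with the inhibitor. Over all genes without such an exon the sums were 449440 and 440854 in DMSO and 451320 and 450505 with the inhibitor. Eme1 and Trp53bp1 set the sum of the 32 genes. Without these 2, a choice made after their levels were seen, the sums were 1419 and 1437 in DMSO and 1348 and 1320 with the inhibitor, a ratio of 0.934. Leaving out any 1 library gave ratios from 0.924 to 0.944. Over the 23 genes without an opposite protein-coding exon the sums were 557 and 485 in DMSO and 447 and 437 with the inhibitor, a ratio of 0.847. Without DMSO A this ratio was 0.910, and without DMSO B 0.793. Both reduced sums were lower in each inhibitor library than in each DMSO library. They carry no test, and 2 libraries against 2 cannot give an exact two-sided permutation p below 0.333.

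**Figure D4:**
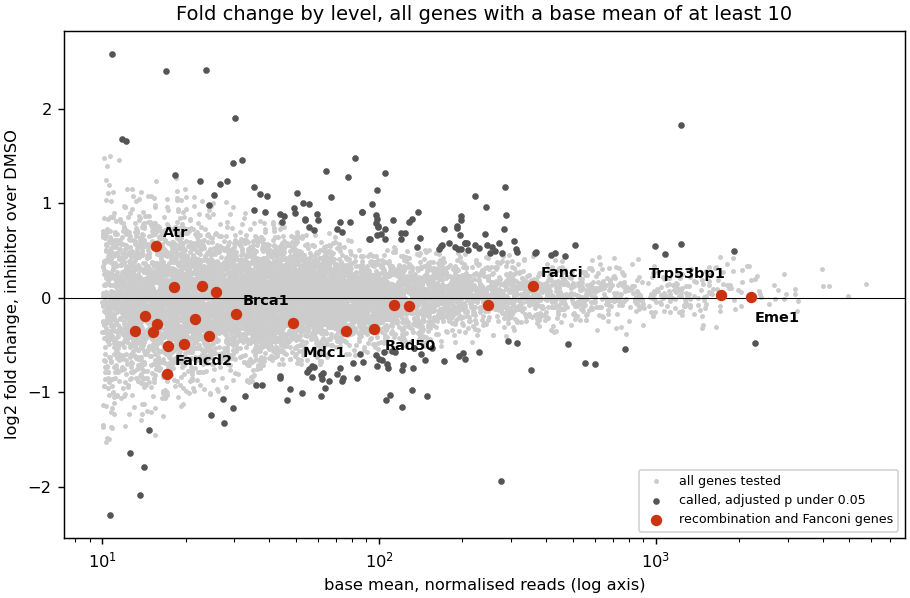
Log2 fold change of inhibitor over DMSO against base mean (log axis) for every tested gene (base mean 10 or more, grey), called genes (dark) and the 23 tested recombination and Fanconi genes (red). The red points lie within the grey cloud, and most of those under a base mean of 50 lie below 0 (11 of 15).

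At a base mean from 10 to 50 the median log2 fold change of the 15 tested genes was -0.27, and 11 were below 0, against 51.5% of all genes in that range. At a base mean of at least 50 the median of the 8 tested genes was -0.08, with 5 below 0, against 46.3%. Non-overlapping groups with lower inhibitor values were seen at 6 of the 15 against 20.4% of all genes of that range, and at 2 of the 8 against 20.6%.

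Other genes of the same pathways were taken from lists written together with the design. Of 25 tested recombination genes outside the 32, 1 was called higher and 0 lower, with a median log2 fold change of -0.07. The gene that rose was Mcm9, a helicase subunit of recombination, with 366 and 432 normalised reads in DMSO and 524 and 561 with the inhibitor. Its log2 fold change was 0.45 ± 0.13 (adjusted p = 0.046, limma). With no minimum base mean its adjusted p was 0.31 (limma), and in the authors' deposited table (DESeq2) it is 0.35. Exons of Mcm9 share 1748 bp with the histone chaperone gene Asf1a on the other strand. Mcm9 was not called without DMSO A, inhibitor A or inhibitor B (limma, adjusted p from 0.21 to 0.52), and with voom its adjusted p was 0.051.

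Of 15 tested genes on the list of other Fanconi genes, 2 were called lower and 0 higher, with a median of -0.29. Fancl, the ubiquitin ligase subunit of the core complex, fell from 222 and 249.5 normalised reads in DMSO to 138 and 170 with the inhibitor. Its log2 fold change was -0.61 ± 0.15 (adjusted p = 0.0054, limma). On the other strand, 462 bp of its exons are shared with the kinase gene Vrk2. Without inhibitor A the call at Fancl was lost (limma, log2 fold change -0.46, adjusted p = 0.39). With no minimum base mean the adjusted p of Fancl was 0.20 (limma), and in the authors' deposited table (DESeq2) it is 0.35. The other gene that fell was Snx5 (-0.69 ± 0.19; limma, adjusted p = 0.025), which encodes a sorting nexin of endosomes and is not a Fanconi gene. It lost its call without any 1 of the 4 libraries (limma, adjusted p from 0.051 to 0.48). The adjusted p of Snx5 was 0.24 with no minimum base mean (limma), and in the authors' deposited table (DESeq2) it is 0.77. Without Snx5 and Hes1, which were put on the list in error, 1 of 14 tested genes was called, with a median of -0.25.

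Of 23 tested genes on the list of other break signalling and checkpoint genes, 1 was called higher and 0 lower, with a median of 0.09. H2afx, the histone H2AX that ATM phosphorylates at breaks, had 40.4 and 77.2 normalised reads in DMSO and 95.7 and 100.2 with the inhibitor. The log2 fold change was 0.80 ± 0.20 (limma, adjusted p = 0.011). With no minimum base mean the adjusted p of H2afx was 0.36 (limma). DMSO A was the low library, and without it the log2 fold change was 0.34 (limma, adjusted p = 0.57). Without inhibitor A or B the adjusted p was 0.092 and 0.16 (limma), and in the authors' deposited table it is 0.77. A microRNA gene, Gm44335, lies opposite 141 bp of H2afx.

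End joining genes, the main alternative route of break repair, gave 0 calls among 7 tested genes (limma; 0 at an unadjusted p under 0.05), with a median of -0.01. The smallest p-values were those of the polymerase gene Polm (log2 fold change -0.71 ± 0.41; limma, adjusted p = 0.47) and of Xrcc5, which encodes KU80 (-0.33 ± 0.36; 0.79).

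Recombination genes follow the cell cycle, so the values of cycle genes are given beside them. Of 38 tested S phase and E2F target genes 0 were called (limma; 2 at an unadjusted p under 0.05), and their median log2 fold change was -0.01. The smallest p-values were those of Ccne2, which encodes cyclin E2 (0.39 ± 0.15; limma, adjusted p = 0.16), and Rfc5, a clamp loader subunit (0.35 ± 0.13; 0.18). Of 26 tested mitosis genes 1 was called higher and 0 lower (limma, 7 at an unadjusted p under 0.05), with a median of 0.15. Over all genes tested, 12.2% had an unadjusted p under 0.05 (limma). That share is above the one of the S phase list and below the one of the mitosis list. Aurka, the Aurora A kinase, rose from 29.6 and 34.4 normalised reads in DMSO to 61.7 and 56.1 with the inhibitor (0.86 ± 0.24; limma, adjusted p = 0.025). Aurka was not called without DMSO A, inhibitor A or inhibitor B (limma, adjusted p from 0.11 to 0.30). The part of cell cycle differences in the values of the recombination genes was not tested.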

How the data were processed

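The submitters' processing notes name mm10 as build and list DESeq2, StringTie 1.3.0, HISAT2 2.1.0 and SAMtools 1.2 with no order. No source used here gives the read counter, its strand setting or the annotation. The authors deposited 1 table with 4 columns of log2 values per library (headed logCPM, read here as log2 normalised counts shrunk toward the gene's mean) and, per the file headers, DESeq2's base mean (a signal: counts over size factors, averaged), fold change, Wald score and p-value with adjusted p. Columns name the group and a letter, not the labels' replicate number.

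Whole reads were recovered as the whole numbers whose size-factor-weighted mean gives the deposited base mean, with size factors of 1.11, 0.958, 0.972 and 0.999 taken from the lowest base means. A single solution was found for 12571 of 12578 genes and for all 32 described here; the other 7 were left out of fits to reads. The search was tested on simulated data. Mean chi-square per gene between the libraries of a group was 1.91 in DMSO and 1.46 with the inhibitor, so none was a repeat deposit. Limma 3.58.1 (R 4.3.3) with a variance trend was fitted to the deposited log2 values where the base mean reached 10, with group as the only term; p-values are from this fit and lean on the genes' common spread (182 prior and 2 residual degrees of freedom). Fold changes, standard errors and 95% intervals come from limma on log2 of normalised reads plus a pseudocount of 1, which understates changes of low genes. Limits on counts of 0 cover counting error only, and the labels name no molecular identifiers. Exon overlaps are from GENCODE M21 (mm10), matched by Ensembl ID for 12570 genes.

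All 32 genes are named. From each other pathway list the called genes are named or, with none, the 2 with the smallest p. The genes, lists and reading of the table were chosen with earlier results of these data known. A planned count of arginine-glycine motifs in the proteins was not made.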

Additional observations from a re-analysis of the deposited data

How the results depend on the processing

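In every fit run, 0 of the recombination and Fanconi genes were called, and the lowest adjusted p was 0.051, at Rad50 without DMSO B (limma). The fits covered no minimum (32 tested), a base mean of at least 50 (8 tested), recovered reads, a pseudocount of 5, voom with TMM or library size, each library left out, the column letter as a block, genes without an opposite-strand exon (9 tested) and the authors' DESeq2 values. The median log2 fold change, -0.19, was -0.075 at a base mean of at least 50, -0.031 on the deposited log2 scale and -0.33 without genes with an opposite-strand exon; leaving out 1 library gave -0.22 to -0.10. The ratio of summed reads, 0.990, ran from 0.926 to 1.06 with 1 library left out and was 0.847 without members opposite a protein-coding exon, a choice made after seeing the data. Of 247 values of single genes under alternatives, 17 had the other sign, at 10 genes (Blm, Brip1, Eme1, Fancc, Fance, Nbn, Rad51ap1, Rad54l, Rbbp8 and Trp53bp1). Over all genes, 111 higher and 72 lower calls became 12 and 4 with no minimum, 62 and 47 without genes with an opposite-strand exon, and 16 and 10 in the authors' table; 71 were higher with library size only. Leaving out 1 library gave 42 to 178 higher and 21 to 76 lower. For the S phase and mitosis lists, 1 higher call became 0 with no minimum, at a base mean of at least 50, with library size only and in the authors' table, and 0 to 3 with 1 library left out; lower calls were 0 to 1. The number of reads limits what can be seen: the 95% intervals of the tested genes reached from a factor of 1.202 to a factor of 1.84 on either side of the estimate. The causes of these shifts were not tested. The columns carry letters and not the labels' replicate numbers. A fit with the letter as a replicate block, added after seeing the data, called 0 of the 32 genes, 133 genes higher and 94 lower over all genes, and gave the same median of -0.19; the letters share little, with a correlation of 0.04 across 8555 genes between the A minus B differences of the groups.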
